A study of Mus musculus with 6 samples.

Results

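The Cyp3a genes of the mouse encode cytochrome P450 enzymes of the hepatocyte, and 7 of them are described here across the 6 liver libraries of the series: Cyp3a11, Cyp3a13, Cyp3a16, Cyp3a25, Cyp3a41a, Cyp3a44 and Cyp3a59. They were taken as the rows of the deposited count table whose Ensembl identifiers carry these symbols, 7 of 55802 rows, and 6 of the 7 passed the filter on low counts among 15579 genes tested. The CCl4 group (3 libraries) came from livers of wild-type C57BL/6 mice given carbon tetrachloride, a solvent that hepatocytes turn into a reactive radical and that is used to bring about liver fibrosis. The control group (3 libraries) came from livers of wild-type C57BL/6 mice given oil. The sources used here give no age, dose, route or duration. Whole liver RNA was sequenced, so less RNA per hepatocyte and fewer hepatocytes cannot be told apart.

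CYP3A enzymes sit in the membrane of the endoplasmic reticulum, hold a haem group and take electrons from the reductase Por to oxidise drugs, steroids and bile acids. The genes are known to be induced through the xenobiotic receptors PXR (Nr1i2) and CAR (Nr1i3), which act with RXR partners, and through HNF4A. Cyp3a11 is the main CYP3A enzyme of adult mouse liver, Cyp3a16 is known from fetal and newborn liver, and Cyp3a41a and Cyp3a44 are known from female liver, where the rhythm of growth hormone secretion sets their level.

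The members fall into groups by sequence. In the transcripts of the GENCODE M21 annotation, the coding sequence of Cyp3a11 was 92.8% identical to that of Cyp3a16, 95.2% to that of Cyp3a41a and 94.9% to that of Cyp3a44. Cyp3a25 and Cyp3a59 formed a pair with 97.5% identical bases, and Cyp3a13 was 74.7 to 76.5% identical to the other 6. All 7 genes lie on chromosome 5. The bases around the codon of the cysteine that holds the haem iron, in capitals below, are shown because they let a reader see how alike the copies are. Of 45 positions there, 39 were the same in all 8 Cyp3a genes in which the pattern of this site was found. The pattern was not found in Cyp3a59.
Cyp3a11: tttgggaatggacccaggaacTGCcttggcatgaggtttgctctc
Cyp3a16: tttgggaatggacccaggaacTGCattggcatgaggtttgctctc
Cyp3a44: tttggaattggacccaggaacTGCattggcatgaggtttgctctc
Cyp3a25: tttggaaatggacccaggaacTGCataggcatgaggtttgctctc
Cyp3a13: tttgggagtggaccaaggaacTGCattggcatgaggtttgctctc

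**Figure D1:**
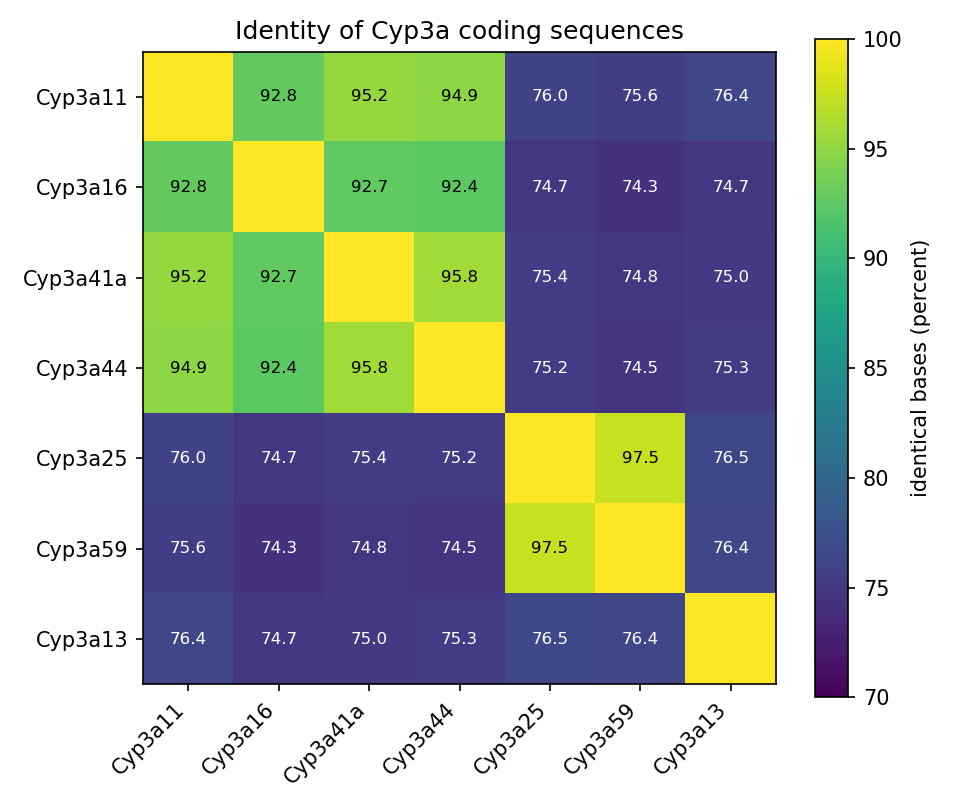
Percent of identical bases between the coding sequences of the 7 Cyp3a members, each taken as the longest open reading frame of its longest coding transcript in GENCODE M21. Cyp3a11, Cyp3a16, Cyp3a41a and Cyp3a44 form a block at 92.4 to 95.8%, Cyp3a25 and Cyp3a59 a pair at 97.5%, and Cyp3a13 stands apart from both.

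How far reads can be told apart differs between members. Of the 50-base words in the transcript of Cyp3a13, 0.0% were found in a transcript of any other gene, against 14.8% for Cyp3a11, 10.7% for Cyp3a16, 26.5% for Cyp3a44, 26.8% for Cyp3a25 and 28.0% for Cyp3a59. For Cyp3a41a it was 98.6%, most of it shared with its copy Cyp3a41b (93.7%). No gene outside the family shared such a word with a member. The sources used here do not say how the authors treated reads with more than 1 matching gene, so the split of counts between Cyp3a25 and Cyp3a59, and between Cyp3a11, Cyp3a16, Cyp3a41a and Cyp3a44, is uncertain.

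The bases just before the start of transcription are shown for 5 members because members with like promoters are compared below. They are the 200 bases before the RefSeq start in GRCm38.p6, 5′ to 3′ on the strand of the gene. Capitals mark 2 motifs searched on both strands, the nuclear receptor half-site AGGTCA (or TGACCT) and the HNF4 element CAAAGTCCA (or TGGACTTTG). The motifs could overlap by their letters, and no match overlapped another in these windows. In the 250 bases before a start, 14.0% of 32851 promoters in the RefSeq table held the half-site and 0.384% the HNF4 element. The windows lie at chr5:145879855-145880054 (minus strand) for Cyp3a11, chr5:145805875-145806074 (minus) for Cyp3a44, chr5:146009619-146009818 (minus) for Cyp3a25, chr5:146079058-146079257 (plus) for Cyp3a59 and chr5:137921620-137921819 (minus) for Cyp3a13.
Cyp3a11: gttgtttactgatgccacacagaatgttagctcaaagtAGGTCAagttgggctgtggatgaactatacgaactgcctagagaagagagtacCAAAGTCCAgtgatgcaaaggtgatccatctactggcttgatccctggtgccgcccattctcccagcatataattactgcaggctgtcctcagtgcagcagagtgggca
Cyp3a44: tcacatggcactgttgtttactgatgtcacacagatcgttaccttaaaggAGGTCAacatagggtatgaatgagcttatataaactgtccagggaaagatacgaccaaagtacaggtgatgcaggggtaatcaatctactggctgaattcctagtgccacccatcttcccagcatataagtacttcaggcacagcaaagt
Cyp3a25: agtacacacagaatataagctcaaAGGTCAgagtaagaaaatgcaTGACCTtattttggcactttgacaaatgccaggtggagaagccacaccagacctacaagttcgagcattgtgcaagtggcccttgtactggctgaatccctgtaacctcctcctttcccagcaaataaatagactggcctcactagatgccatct
Cyp3a59: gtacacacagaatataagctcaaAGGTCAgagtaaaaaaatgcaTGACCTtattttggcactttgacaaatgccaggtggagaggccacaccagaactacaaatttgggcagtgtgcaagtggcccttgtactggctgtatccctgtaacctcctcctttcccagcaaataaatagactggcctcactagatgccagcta
Cyp3a13: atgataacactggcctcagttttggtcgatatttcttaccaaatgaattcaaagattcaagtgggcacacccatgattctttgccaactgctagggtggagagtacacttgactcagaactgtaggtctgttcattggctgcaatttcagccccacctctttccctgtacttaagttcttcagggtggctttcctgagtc

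The 200-base windows of Cyp3a25 and Cyp3a59 were 94.5% identical, and each held 2 half-sites on opposite strands and no HNF4 element. Other windows were nearly as alike: Cyp3a41a and Cyp3a44 (94.0%), Cyp3a16 and Cyp3a44 (91.7%), and Cyp3a16 and Cyp3a41a (89.7%). As given below, Cyp3a44 rose, Cyp3a16 did not pass the test and Cyp3a41a was too low to test. Cyp3a11 held 1 half-site, 162 to 157 bases before the start, and 1 HNF4 element, 109 to 101 bases before it. The HNF4 element was also found in Cyp3a16 and Cyp3a41a, and a half-site in Cyp3a44. Neither motif was found in the window of Cyp3a13, which was 48.6% identical to that of Cyp3a11. These are matches of letters only.

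The library totals ran from 18929972 to 19293751 counts in the CCl4 group and from 19370200 to 20042731 in the control group. The first principal component of log2 CPM (counts per 1000000, relative to the TMM-scaled library size) split CCl4 from control libraries and took 78.9% of the variance. On the second (8.91%), CCl4 replicate 3 lay far from the other CCl4 libraries, and values without it are given where they matter. The labels do not state that each library is a separate animal, so the spread behind the p-values is that among these libraries and may be technical. The liver label was checked against 10 hepatocyte markers, all of which were detected, with a summed level of 105000.0 to 109000.0 CPM in the CCl4 group and 105000.0 to 112000.0 CPM in the control group. The Y-linked gene Ddx3y stood at 86.9 to 93.2 CPM in CCl4 libraries and 94.1 to 106 CPM in controls, and the X inactivation RNA Xist at 0.151 to 0.295 and 1.64 to 1.97 CPM. The Y-linked Uty, Eif2s3y and Kdm5d were also found in every library. Of these 5 sex-linked genes, Xist (log2 fold change -3.07, edgeR adjusted p = 8.81e-05) and Kdm5d (-0.30, edgeR adjusted p = 0.00589) were lower in CCl4 libraries. Ddx3y, Uty and Eif2s3y did not pass the threshold of 0.05.

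The Cyp3a members did not move together after CCl4. Of the 6 tested, Cyp3a11, Cyp3a13 and Cyp3a44 rose and Cyp3a25 and Cyp3a59 fell, while Cyp3a16 did not pass the test and Cyp3a41a was too low to test. A gene is called here when edgeR's quasi-likelihood test gave a Benjamini-Hochberg adjusted p under 0.05 over all genes tested. This was so for 41.3% of all genes tested, 21.2% higher and 20.1% lower in CCl4 livers, and 3 higher and 2 lower among 6 has to be read against that. CPM values of the groups were fully apart for Cyp3a13 and Cyp3a44, which were higher in CCl4 livers, and for Cyp3a25 and Cyp3a59, which were lower. Over all genes tested, 54.0% did not overlap, 27.6% higher and 26.4% lower. All genes tested had a median log2 fold change of 0.000564. Cyp3a44 passed the filter through its CCl4 libraries alone, so its place among the tested members depended on its being high there.

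**Figure D2:**
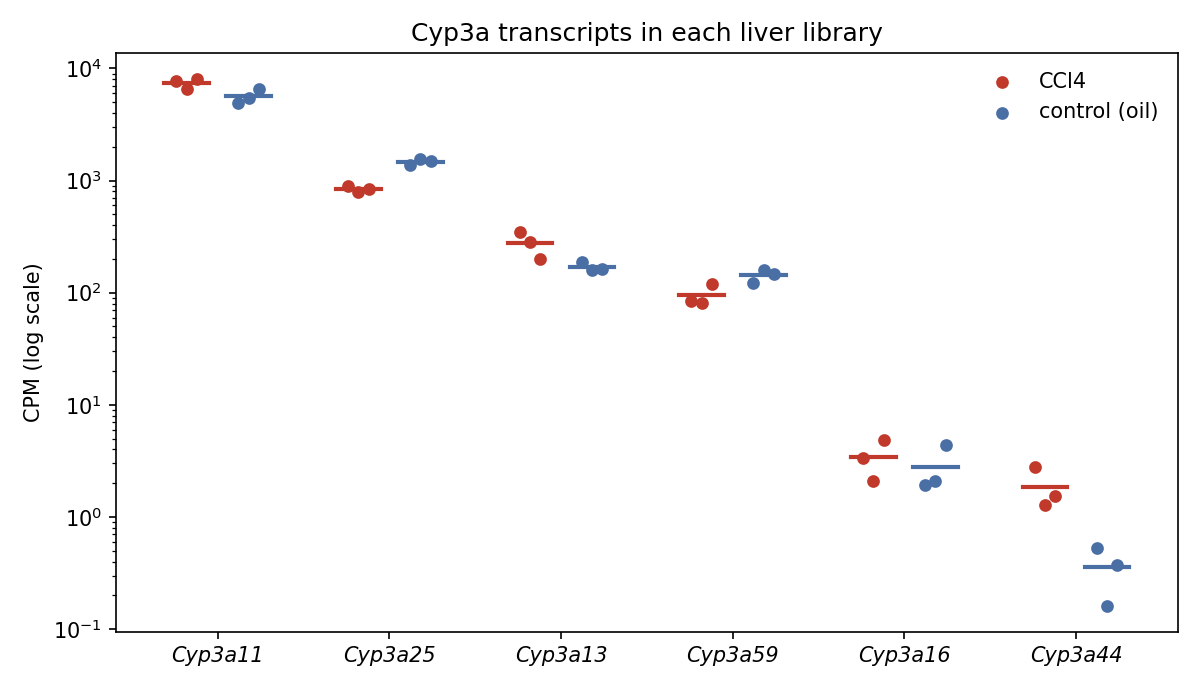
CPM of the 6 tested Cyp3a members in each library on a log axis, CCl4 libraries in red left of control libraries in blue, with a bar at each group mean (n = 3). Cyp3a25 and Cyp3a59 lie lower in all 3 CCl4 libraries than in any control, Cyp3a13 and Cyp3a44 higher, and Cyp3a11 and Cyp3a16 overlap.

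Cyp3a11 (ENSMUSG00000056035) was the most abundant member in every library. It stood at 7691, 6549 and 7989.7 CPM in CCl4 replicates 1, 2 and 3, against 4956, 5474 and 6596 CPM in control replicates 1, 2 and 3. The groups overlapped, since CCl4 replicate 2 lay just under control replicate 3. The means were 7410.0 ± 760.1 CPM in CCl4 livers and 5675 ± 838 CPM in controls (SD, n = 3 each). The log2 fold change was 0.38 (SE 0.12, edgeR adjusted p = 0.0265), a 1.31-fold rise with a 95% interval of 1.09 to 1.57. Of the 3303 genes called higher, 83.4% had a larger fold change. Cyp3a11 was no longer called when CCl4 replicate 1 (adjusted p = 0.0798), CCl4 replicate 3 (0.0922), control replicate 1 (0.104) or control replicate 2 (0.0863) was left out, nor when low counts were not filtered (0.0932). Over all 15 alternatives its adjusted p ran from 0.00456 (DESeq2) to 1.0 (minimum fold change of 1.5).

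By CPM, Cyp3a11 ranked 9, 10 and 8 among all genes in CCl4 replicates 1, 2 and 3, and 23, 18 and 13 in the control replicates. Its counts made up 0.791, 0.686 and 0.859% of all counts in the CCl4 libraries and 0.471, 0.523 and 0.621% in the controls. On this scale, which uses no scaling factors, the groups did not overlap. Without scaling factors other genes shift upward too: with library size alone the median log2 fold change over all genes tested was 0.147.

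Cyp3a25 (ENSMUSG00000029630), an enzyme of liver and intestine, had the smallest adjusted p of the members. It stood at 899.6, 785 and 839.6 CPM in CCl4 replicates 1, 2 and 3, against 1362, 1546 and 1489.8 CPM in control replicates 1, 2 and 3. All CCl4 libraries lay well below all controls. The means were 841 ± 57.3 CPM in CCl4 livers and 1466 ± 93.9 CPM in controls (SD, n = 3 each). The log2 fold change was -0.80 (SE 0.08, edgeR adjusted p = 5.64e-05), a level 0.574 times that of controls (95% interval 0.51 to 0.646). Of the 3124 genes called lower, 17.9% had a larger fall. The call held in all 15 alternatives, with a log2 fold change between -0.86 and -0.65.

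Cyp3a59 (ENSMUSG00000061292), the close copy of Cyp3a25, stood at 84.7, 81.0 and 119.5 CPM in CCl4 replicates 1, 2 and 3 and at 121.7, 159.7 and 146 CPM in control replicates 1, 2 and 3. CCl4 replicate 3 was only just below control replicate 1. The means were 95.1 ± 21.3 CPM in CCl4 livers and 143 ± 19.3 CPM in controls (SD, n = 3 each), and the log2 fold change was -0.58 (SE 0.18, edgeR adjusted p = 0.0443). Without CCl4 replicate 3 it was -0.78 (adjusted p = 8.83e-04). Cyp3a59 was not called when CCl4 replicate 1 (0.125), CCl4 replicate 2 (0.0951), control replicate 2 (0.113) or control replicate 3 (0.116) was left out. Upper quartile scaling (0.0771), library size alone (0.13) and unfiltered counts (0.148) gave no call either.

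Cyp3a59 counts came to 9.42, 10.3 and 14.2% of those of Cyp3a25 in the CCl4 libraries and to 8.93, 10.3 and 9.83% in the controls. This ratio overlapped between the groups (exact permutation test, two-sided, p = 0.5; adjusted p = 0.6 over 6 ratios between members). Summed, so that reads misplaced between them do not matter, the pair stood at 936.5 ± 62.3 CPM in CCl4 livers and 1609 ± 113 CPM in controls (SD, n = 3 each).

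Cyp3a13 (ENSMUSG00000029727), known from liver and intestine, shared no word with another gene and its counts are the least open to misplaced reads. It stood at 346, 281 and 200.3 CPM in CCl4 replicates 1, 2 and 3, against 187, 160.2 and 162 CPM in control replicates 1, 2 and 3. All CCl4 libraries were higher, with CCl4 replicate 3 nearest to the controls. The means were 276 ± 73.0 CPM in CCl4 livers and 169.6 ± 14.9 CPM in controls (SD, n = 3 each). The log2 fold change was 0.70 (SE 0.20, edgeR adjusted p = 0.0381), a 1.63-fold rise with a 95% interval of 1.15 to 2.31. Without CCl4 replicate 3 it was 0.89 (adjusted p = 2.06e-04). Cyp3a13 was not called when CCl4 replicate 2 (0.0943), control replicate 1 (0.0587), control replicate 2 (0.114) or control replicate 3 (0.116) was left out, or when low counts were not filtered (0.141).

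**Figure D3:**
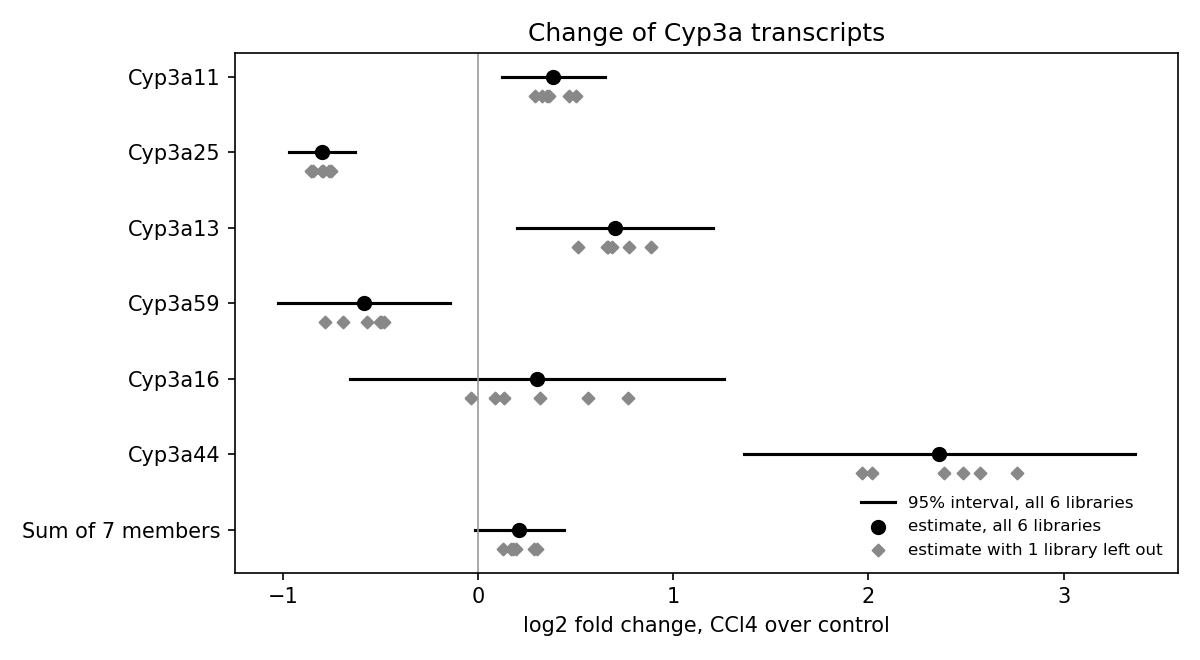
Log2 fold change, CCl4 over control, of the 6 tested members and of their summed counts (black points, lines are 95% intervals), with the estimates after leaving out 1 library each (grey diamonds). Cyp3a25 stays between -0.86 and -0.75 when a library is left out, and Cyp3a16 falls on both sides of 0.

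The members known from fetal or female liver were near the bottom of the range. Cyp3a44 (ENSMUSG00000054417) had 55, 26 and 31 counts in CCl4 replicates 1, 2 and 3, against 10, 3 and 7 counts in control replicates 1, 2 and 3. This is 1.86 ± 0.798 CPM in CCl4 livers and 0.355 ± 0.186 CPM in controls (SD, n = 3 each), and every CCl4 library was higher than every control. The log2 fold change was 2.36 (SE 0.45, edgeR adjusted p = 0.00241), a 5.14-fold rise with a 95% interval of 2.57 to 10.3, and the call held in all 15 alternatives. Set against the counts of Cyp3a11, with which it shares 6.95% of its words, Cyp3a44 came to 0.0360, 0.0196 and 0.0191% in the CCl4 libraries and to 0.0107, 0.00296 and 0.00563% in the controls. The part of reads misplaced from Cyp3a11 in these counts was not tested.

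Cyp3a16 (ENSMUSG00000038656) had 67, 42 and 99 counts in CCl4 replicates 1, 2 and 3 and 36, 39 and 82 counts in control replicates 1, 2 and 3. The groups overlapped, and replicate 3 was the highest of each group. The means were 3.44 ± 1.39 CPM in CCl4 livers and 2.79 ± 1.35 CPM in controls (SD, n = 3 each), without a call (log2 fold change 0.30, 95% interval -0.66 to 1.26, edgeR adjusted p = 0.593). Without CCl4 replicate 3 the log2 fold change was -0.04 (adjusted p = 0.956). Its counts were 0.0317 to 0.0609% of those of Cyp3a11 in CCl4 libraries and 0.0385 to 0.0659% in controls.

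Cyp3a41a (ENSMUSG00000075551) had 0, 1 and 0 counts in the CCl4 libraries and 1, 1 and 0 in the controls, which is under the 3 counts that a count of 0 allows in each library, so no fold change is given. Its copy Cyp3a41b had 3, 6 and 1 counts in CCl4 libraries and 2, 2 and 3 in controls. Cyp3a57 had at most 2 counts in a library, the pseudogene Cyp3a63-ps had counts in CCl4 replicate 3 only (3 counts), and Cyp3a61-ps1 had 0 in every library. The allowance of 3 counts covers counting error only. Differences at such levels were not detectable at this depth.

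Summed over the 7 members, the family did not pass the test. The sum stood at 9027, 7700.3 and 9156 CPM in CCl4 replicates 1, 2 and 3, against 6629, 7342 and 8398 CPM in control replicates 1, 2 and 3, and the groups overlapped. The log2 fold change of the sum was 0.21 (SE 0.10, 95% interval -0.02 to 0.44, edgeR adjusted p = 0.128). With upper quartile scaling it was 0.30 (adjusted p = 0.0382) and with library size alone 0.36 (0.0182), while the median log2 fold change over all genes was 0.0872 and 0.147 under these scalings. The 6 members other than Cyp3a11, summed, had a log2 fold change of -0.55 (adjusted p = 5.38e-04).

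The make-up of the Cyp3a counts does not depend on library scaling. Cyp3a11 held 85.2, 85.1 and 87.3% of the Cyp3a counts in CCl4 replicates 1, 2 and 3, against 74.8, 74.6 and 78.5% in control replicates 1, 2 and 3. Cyp3a25 held 9.97, 10.2 and 9.17% in the CCl4 libraries and 20.6, 21.1 and 17.7% in the controls. Neither share overlapped between the groups, with a difference of 9.89 percentage points for Cyp3a11 and of -10.0 for Cyp3a25. With counts per kilobase of merged exons these differences were 15.6 and -16.0 percentage points. Cyp3a59 held 1.10 ± 0.188% in CCl4 livers and 1.92 ± 0.228% in controls, and Cyp3a13 held 3.23 ± 0.902% and 2.31 ± 0.459% (SD, n = 3 each). For Cyp3a11, Cyp3a25, Cyp3a44 and Cyp3a59 the exact permutation test (two-sided) gave p = 0.1, the smallest p that 3 against 3 libraries allow, and an adjusted p of 0.175 over 7 shares, so none passed the threshold. The share of Cyp3a13 gave p = 0.2 in the same exact test.

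**Figure D4:**
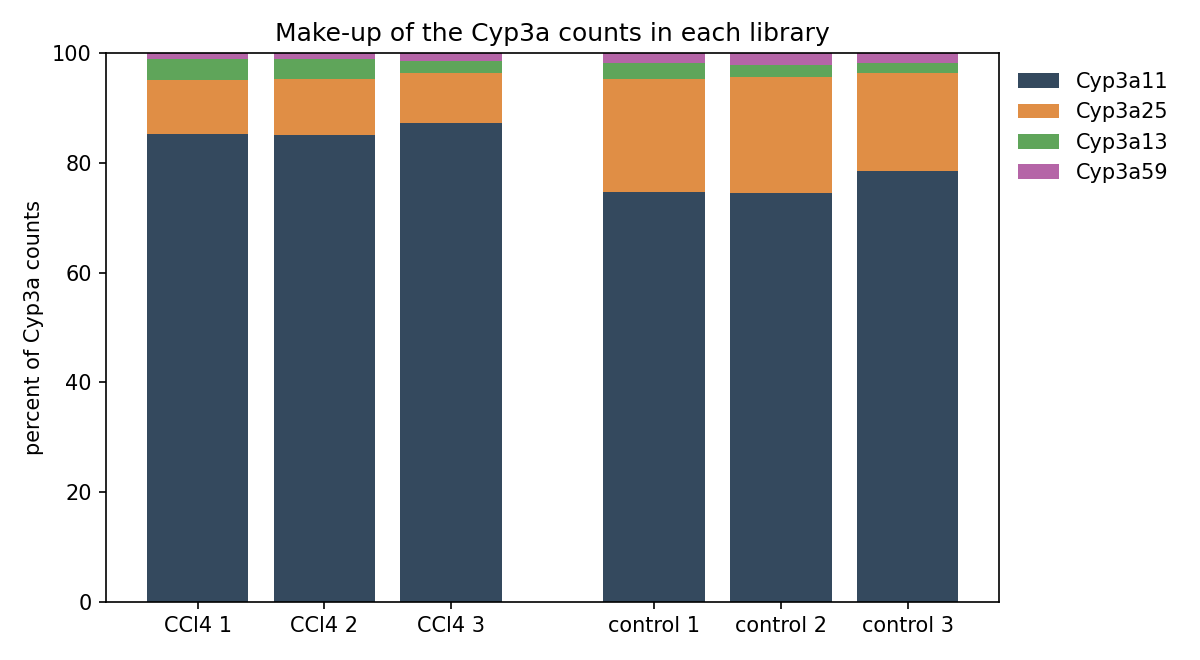
Percent of the counts of the 7 Cyp3a members held by Cyp3a11, Cyp3a25, Cyp3a13 and Cyp3a59 in each library, CCl4 libraries left of controls. The other 3 members together hold too little to be seen. Cyp3a25 takes 9.17 to 10.2% in CCl4 libraries and 17.7 to 21.1% in controls.

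Levels of different members were compared per length. Per kilobase of merged exons, Cyp3a11 stood at 1455 ± 149 CPM in CCl4 livers and 1114 ± 165 CPM in controls, and Cyp3a25 at 404 ± 27.5 and 704 ± 45.1 CPM (SD, n = 3 each). Cyp3a13 stood at 93.3 ± 24.7 CPM per kilobase in CCl4 livers and 57.4 ± 5.05 CPM per kilobase in controls, and Cyp3a59 at 47.5 ± 10.6 and 71.2 ± 9.64. Cyp3a16 and Cyp3a44 were below 3 CPM per kilobase in all libraries. The order was therefore Cyp3a11, Cyp3a25, Cyp3a13, Cyp3a59, Cyp3a16, Cyp3a44 and Cyp3a41a in CCl4 livers. In controls Cyp3a59 stood above Cyp3a13, by 71.2 ± 9.64 and 57.4 ± 5.05 CPM per kilobase, and in control replicate 1 Cyp3a59 (60.8) was below Cyp3a13 (63.2). The ranges of Cyp3a16 and Cyp3a44 overlapped in CCl4 livers (1.201 to 2.81 and 0.655 to 1.41 CPM per kilobase) and not in controls (1.11 to 2.51 and 0.0826 to 0.271). The merged exons of Cyp3a11 span 5.093 kilobases, more than its longest coding transcript. Per kilobase of its coding transcript (2.344 kilobases), a length chosen after seeing the data, Cyp3a11 stood at 3161 ± 324 CPM in CCl4 livers and 2421 ± 358 CPM in controls.

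The 3 genes whose log2 CPM followed that of Cyp3a11 most closely over the 6 libraries, among 8708 genes with at least 10 CPM in a group, were Kctd2 (Pearson r = 0.9875), Rasgrp3 (0.984) and Zmym3 (0.983). The libraries share their scaling and fall into 2 groups, so these are descriptions. Kctd2 stood at 23.1 ± 1.53 CPM in CCl4 livers and 20.5 ± 1.51 CPM in controls (SD, n = 3 each). None of the 3 was called (edgeR adjusted p 0.0626 to 0.148), whereas all 3 were with upper quartile scaling or library size alone (0.0118 to 0.0302). Rasgrp3 was also called without control replicate 3 (0.0425).

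Of 24 tested genes that encode known regulators of Cyp3a transcription, 11 were lower and the other 13 not called, with a median log2 fold change of -0.31. Over all genes tested, 20.1% were lower and 21.2% higher, and the counts of this and the following lists are to be read against these shares. PXR (Nr1i2) stood at 57.9, 58.8 and 56.3 CPM in CCl4 libraries and at 77.6, 79.8 and 71.2 CPM in controls (log2 fold change -0.40, SE 0.06, edgeR adjusted p = 5.69e-04). CAR (Nr1i3) stood at 25.4, 20.8 and 22.0 CPM in CCl4 libraries and at 42.4, 45.01 and 45.5 CPM in controls (-0.96, SE 0.08, edgeR adjusted p = 2.68e-05). Both were lower in all 3 CCl4 libraries than in any control. Hnf4a stood at 479 to 556 CPM in CCl4 libraries and 589 to 603 CPM in controls, and did not pass (-0.19, edgeR adjusted p = 0.0517). Among the alternatives that passed were leaving out CCl4 replicate 1 (adjusted p = 0.0414), limma-voom (0.0427) and no filter on low counts (0.0197). At a minimum fold change of 1.5, 1 regulator was called lower, and 8 were without CCl4 replicate 2. With library size alone, 1 regulator was called higher and 6 lower, and the log2 fold change of Nr1i2 was -0.26.

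Of 22 tested other genes known to be induced through PXR or CAR, 11 were higher and 5 lower (median log2 fold change 0.38), against 21.2% higher and 20.1% lower over all genes. The lower count is near the share over all genes. The lower genes were Cyp2a5 (log2 fold change -1.95), Ces2a (-0.71), Ugt1a1 (-0.48), Abcc2 (-0.44) and Abcc3 (-0.43). Cyp2b10, the classical CAR target, stood at 722, 530.0 and 282 CPM in CCl4 replicates 1, 2 and 3 and at 70.3, 95.4 and 77.1 CPM in control replicates 1, 2 and 3 (2.66, SE 0.41, edgeR adjusted p = 0.00686). CCl4 replicate 3 was the lowest of its group there, as it was for Cyp3a13. Cyp2c55, a target of both receptors, rose by 2.16 on the log2 scale (SE 0.13, edgeR adjusted p = 3.18e-05), and Gsta1, a glutathione transferase, by 2.97. Cyp2c29, the most abundant of the list, rose by 0.88 (edgeR adjusted p = 0.0318). It was not called without CCl4 replicate 2 (adjusted p = 0.0773), without any single control (0.081 to 0.0826), or without a filter (0.121). Without control replicate 1, 7 of the list were called higher. Cyp2c29, Gsta1 and Gsta2, among others of this list, have close copies, and their own values carry the same uncertainty as those of Cyp3a25.

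**Figure D5:**
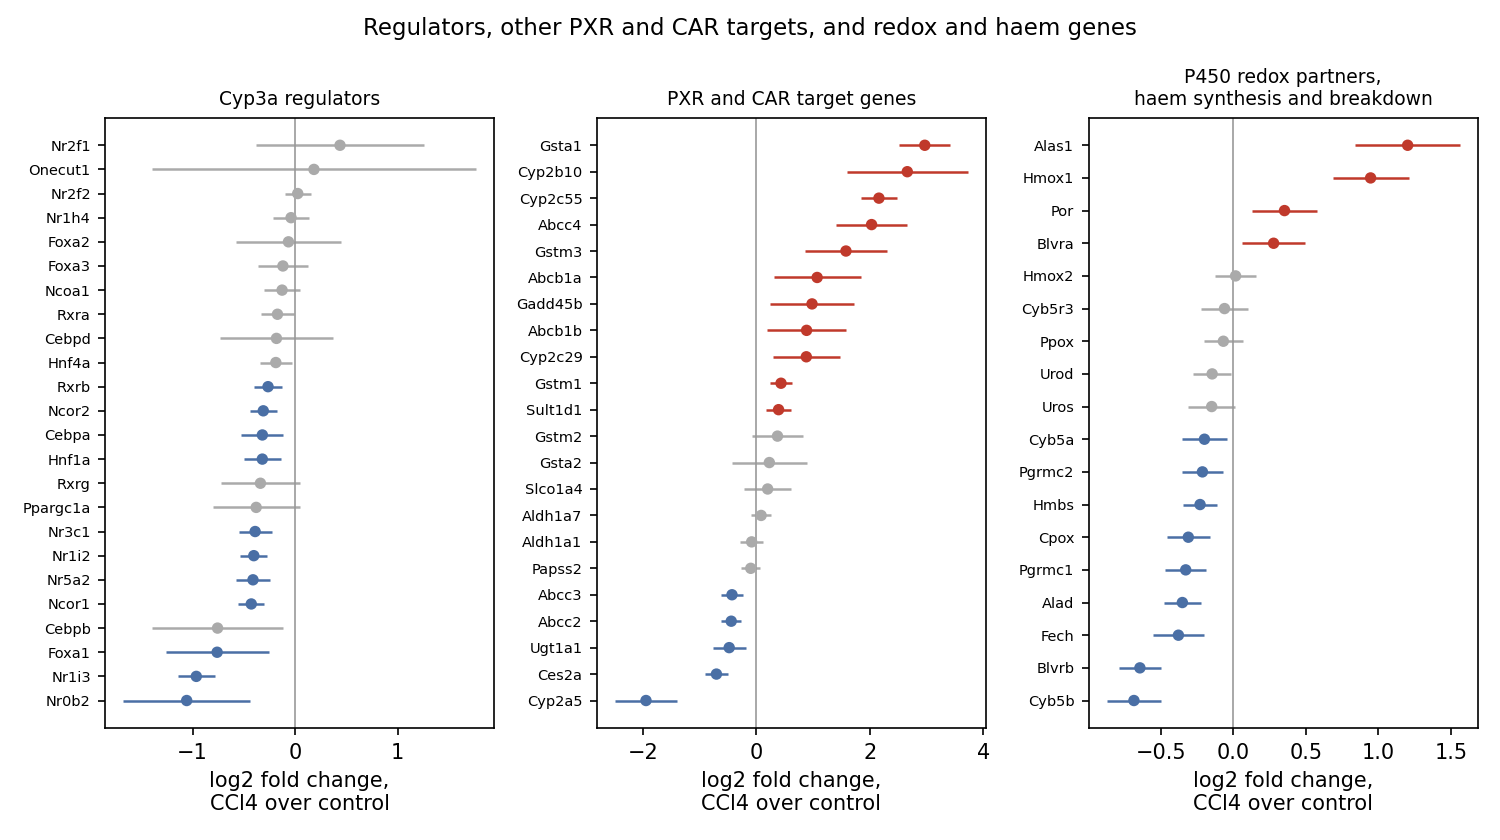
Log2 fold change, CCl4 over control, with 95% intervals for tested genes of 3 kinds: known regulators of Cyp3a genes, other PXR and CAR target genes, and redox and haem genes. Red marks genes called higher, blue genes called lower and grey genes without a call. No regulator is called higher (1 is with library size alone), while the target genes run from -1.95 for Cyp2a5 to 2.97 for Gsta1.

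Among 6 genes of P450 redox partners and related haem-binding proteins, 1 was higher and 4 lower (median log2 fold change -0.21). The 4 lower were Cyb5a (-0.20, edgeR adjusted p = 0.0465), Cyb5b, Pgrmc1 and Pgrmc2. Por, the reductase that feeds electrons to all microsomal P450 enzymes, stood at 271, 231 and 263 CPM in CCl4 libraries and at 172, 221 and 206 CPM in controls (0.35, SE 0.10, edgeR adjusted p = 0.0201). Por was not called when leaving out CCl4 replicate 1 (adjusted p = 0.0686), CCl4 replicate 3 (0.0619), control replicate 1 (0.0612) or control replicate 3 (0.0519). Cyb5b, a cytochrome b5 of the outer mitochondrial membrane, fell by 0.68 on the log2 scale (edgeR adjusted p = 2.27e-04). The haem-binding protein gene Pgrmc1 changed by -0.33 (edgeR adjusted p = 0.00253), and with library size alone by -0.18 (adjusted p = 0.0541). With library size alone 1 of the 6 was called lower, and 2 with upper quartile scaling, without CCl4 replicate 2 or without control replicate 3.

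Of 12 genes of haem synthesis and breakdown, 3 were higher and 5 lower (median log2 fold change -0.15), and the count of higher genes is near the 21.2% over all genes. Alas1, the enzyme of the first and rate-limiting step of haem synthesis in liver, stood at 376, 369 and 371 CPM in CCl4 libraries and at 153, 129.5 and 202 CPM in controls, a 2.30-fold rise (95% interval 1.79 to 2.95, edgeR adjusted p = 8.88e-04). Hmox1, the inducible haem oxygenase, rose by 0.95 (edgeR adjusted p = 3.19e-04). Blvrb, a biliverdin reductase, fell by 0.64 (edgeR adjusted p = 7.44e-05). With library size alone, 3 of the 12 were called lower.

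Lists of sex-biased genes were set beside the members known from female liver. Of 16 genes known to be higher in male liver, all 16 were lower in CCl4 livers (median log2 fold change -2.78), among them Slco1a1, a bile salt and steroid carrier (-4.56), and Mup20, a major urinary protein (-1.72). Of 17 genes known to be higher in female liver, 11 passed the filter on low counts. Of these 11, 4 were higher (Cyp2b9, Cyp2a4, Cyp17a1 and Trim24) and 7 not called (median 0.98). Hao2, not called, passed only because of its CCl4 libraries, mainly replicate 3 (24, 37 and 488 counts, against 4, 0 and 6 in controls). Cyp2a4, a steroid hydroxylase, stood at 55.1, 77.2 and 33.6 CPM in CCl4 replicates 1, 2 and 3 and at 1.97, 1.30 and 1.11 CPM in control replicates 1, 2 and 3. Cyp2a5, of the same Cyp2a family, changed the other way (-1.95). Shared words were not measured for these 2 genes, so the split of counts between them is uncertain too. Prlr, the prolactin receptor, was not called (-0.30, edgeR adjusted p = 0.186; -0.15 without control replicate 2). Without CCl4 replicate 3, 2 of this list were called lower. Of 11 growth hormone signalling genes, 6 were lower and 5 not called (median -0.53), among them the receptor Ghr (-0.95, edgeR adjusted p = 9.70e-06) and Stat5b, the factor that carries its signal (-0.55, edgeR adjusted p = 1.76e-04). Without CCl4 replicate 2, 1 of the 11 was called higher.

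Levels of other cells moved with the groups beside the Cyp3a members. Over all genes tested 21.2% were higher and 20.1% lower. Of 10 hepatocyte markers 2 were higher, near that share, and 5 lower. Of 10 macrophage and monocyte markers 9 were higher and 1 not called, with summed levels of 725 to 827 CPM in CCl4 libraries and 279 to 348 CPM in controls. Among the higher ones, Itgam passed the filter only because of its CCl4 libraries (65, 80 and 36 counts, against 13, 8 and 7 in controls). For 10 stellate cell and myofibroblast markers, 8 were higher and 2 not called, with sums of 1160.0 to 1270.0 CPM in CCl4 libraries and 323 to 388 CPM in controls. Of 6 tested cholangiocyte markers 4 were higher (sums of 272 to 358 CPM in CCl4 libraries and 70.8 to 113 CPM in controls), and of 8 sinusoidal endothelial markers 2 were higher and 1 lower, near the shares over all genes. Of 2 tested enterocyte markers, Apoa4 was higher and Fabp2 lower, and the defining enterocyte genes Sis and Alpi were at 0 in every library. Of 14 tested genes of the response to interleukins 6 and 1, which is known to lower CYP3A transcripts in liver, 7 were higher and 1 lower. Orm2, an acute phase protein and the gene of smallest adjusted p in that list (edgeR, 4.05e-04), stood at 160.0 to 223 CPM in CCl4 libraries and 7.10 to 14.7 CPM in controls. The 1 lower gene, the receptor subunit Il6st, was not called without CCl4 replicate 2, CCl4 replicate 3, control replicate 1 or control replicate 3, nor with upper quartile scaling, library size alone, a stricter filter or DESeq2. Fgb, the most abundant of that list, was not called (0.12, edgeR adjusted p = 0.709). Without CCl4 replicate 1 it was at -0.07 (0.813), and without CCl4 replicate 3 at 0.33 (0.0145). The part of these cells and signals in the values of the Cyp3a members was not tested.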

How the data were processed

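For 6 mouse liver libraries the authors deposited raw counts, whole numbers with no normalization. Per the labels' protocols, libraries were built from total RNA with a SMARTER messenger RNA kit. Per the series' design text, adapters and poor reads were removed and reads were aligned with HISAT2. Per the submitters' processing notes, genes were counted with featureCounts. Tool versions, build, annotation, strandedness and the handling of reads with several matching genes were not given in the sources used here. Columns were mapped to samples by name. Of 55359 Ensembl identifiers, 52083 took a symbol from GENCODE M21, and 443 rows with other identifiers were kept in the fit.

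The deposited counts went into edgeR 4.0.16 under R 4.3.3 (filterByExpr, TMM, glmQLFit with robust estimation, glmQLFTest). P-values were adjusted by the Benjamini-Hochberg method over all 15579 genes. The family sum was fitted as 1 row in place of the 7 members. The standard error was taken as the size of the log2 fold change over the root of the F statistic, and log2 fold changes are CCl4 over control. Shares and ratios were compared by exact permutation tests. Coding sequences were aligned with Biopython 1.88. Promoters are from RefSeq (GRCm38.p6), and all 7 members matched. The test was checked on simulated data. No 2 libraries of a group were alike within sampling noise (chi-square of 5.71 to 25.8 per gene).

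The members, lists, tests and the rule for named genes were chosen with earlier results of these data known. The rule took all Cyp3a rows, 8 fixed genes, the member of smallest adjusted p and the member of highest mean CPM of each list, the sex-linked genes and the 3 genes most like Cyp3a11. Genes named outside it (Hmox1, Cyp2a5, Il6st, Cyp2b9, Cyp17a1, Trim24, Gsta2 and the enterocyte markers) were picked with values in view. The same holds for Ces2a, Ugt1a1, Abcc2, Abcc3, Cyb5a, Pgrmc2, Itgam and Hao2. Alternatives were other scalings, other filters, DESeq2 1.42.0, limma-voom (limma 3.58.1), glmTreat at a minimum fold change of 1.5, a replicate block, and leaving out single libraries.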

Additional observations from a re-analysis of the deposited data

How the results depend on the processing

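Of the Cyp3a members, Cyp3a25 and Cyp3a44 kept their direction and call in all 15 alternatives, and no called member changed direction in any. For Cyp3a44 this is limited, since it passed the filter through its CCl4 libraries alone. It also shares 26.5% of its words with other genes of the family. Among the members, 3 were called higher and 2 lower. With no filter on low counts it was 1 higher and 1 lower, as with a minimum fold change of 1.5, and with upper quartile scaling or library size alone 1 was called lower. Leaving out 1 library gave 1 to 2 members higher and 1 to 2 lower. Over all genes, 3303 were called higher and 3124 lower, against 1309 and 380 at a minimum fold change of 1.5 and 4824 and 1676 with library size alone, and 4103 and 2177 with upper quartile scaling. The causes were not tested.

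With no filter on low counts the log2 fold change was 0.37 for Cyp3a11 (adjusted p = 0.0932), 0.69 for Cyp3a13 (0.141) and -0.60 for Cyp3a59 (0.148). At a minimum fold change of 1.5 the estimates were those of the main test (0.38, 0.70 and -0.58) and none of the 3 was called. Cyp3a59 was at -0.50 with upper quartile scaling (0.0771) and at -0.43 with library size alone (0.13). Leaving out 1 library gave 0.29 to 0.50 for Cyp3a11, 0.51 to 0.89 for Cyp3a13, -0.78 to -0.48 for Cyp3a59, -0.86 to -0.75 for Cyp3a25, 1.96 to 2.76 for Cyp3a44, and -0.0364 (without CCl4 replicate 3) to 0.77 for Cyp3a16. The family sum was called at 0.30 with upper quartile scaling and at 0.36 with library size alone, ran from 0.13 to 0.30 with 1 library left out, and was at -0.55 without Cyp3a11, which holds most of its counts. Fgb was at -0.0697 without CCl4 replicate 1 and at 0.3306 without CCl4 replicate 3.

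Libraries of like number correlated in their deviations from the group means at 0.062, 0.019 and 0.091, so the numbers were not taken to pair them. Each CCl4 library correlated best with the control of its own number, while control replicate 2 did not. The replicate block gave 3298 genes higher and changed no call of a Cyp3a member. With it, 15 regulators in place of 11 were called lower, Hnf4a was called (adjusted p = 0.0372) and Cyp2c29 was not (0.0949). With 3 libraries per group, changes below about those seen for Cyp3a11 are at the limit of what can be called, and Cyp3a41a, Cyp3a41b and Cyp3a57 are too low at this depth.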
